A study of Mus musculus with 11 samples.

Results

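Replication-dependent and linker histone genes were followed in the choroid plexus (CP) over the course of experimental autoimmune encephalomyelitis (EAE) with relapses and remissions in mice. The CP is the vascular tissue that produces cerebrospinal fluid, and EAE is an autoimmune disease of the central nervous system induced by immunization against myelin. Members were all genes whose current symbol starts with H1f, H2ac, H2bc, H3c or H4c followed by a number. The Illumina MouseRef-8 array measured 58 such genes with 61 probes, of 15946 named genes and 23978 probes. By class there were 9 probes for the linker histone H1, 12 for H2A, 16 for H2B, 13 for H3 and 11 for H4. The gene group was chosen by measured values, namely the lower signals of several members at disease onset against control, so the onset values below are a description and no p is given for them.

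Each of the 11 samples was a pool of the CP of 3 female SJL mice, which the labels put at 6 to 8 weeks of age. EAE mice had been immunized with a peptide of the myelin protein PLP in complete Freund's adjuvant and given pertussis toxin, and were collected at onset (3 pools), in remission (3 pools) or at relapse (2 pools). Control mice (3 pools) received PBS in place of the peptide, with the same adjuvant and toxin, and were collected together with the onset mice. Remission and relapse mice were collected on later days, so that for these groups the disease phase and the day cannot be told apart. The labels do not say that pools came from separate experiments, so p-values measure the spread between these pools.

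Histones are the proteins around which nuclear DNA is wound. H2A, H2B, H3 and H4 form the core of the nucleosome, and H1 binds the DNA between nucleosomes. The replication-dependent genes lie in clusters, carry many near-identical copies and are mainly transcribed in S phase, when new DNA has to be packed. Their mRNAs characteristically end in a stem-loop in place of a poly(A) tail, although some of these genes also give polyadenylated transcripts in cells that have stopped dividing. The amplification kits named for these arrays prime on poly(A) with an oligo(dT) primer, and which form of transcript gave a signal was not measured here. The members were mostly clustered as well, with 46 of the 58 genes on chromosome 13, 9 on chromosome 3 and 3 elsewhere.

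Many H2A and H2B genes start back to back and share the stretch between their start sites. Such stretches are shown first for a pair in which both genes were called lower at onset (H2ac8 and H2bc8) and for a pair in which only the H2B gene was (H2ac13 and H2bc13), followed by the promoter of an H4 gene called lower. The sequences are RefSeq promoter sequences of the mouse build GRCm38.p6. The table held 54 of the 58 genes (55 windows), and H2bc21, H2bc4, H3c7 and H4c14 were not matched. Capitals mark matches, on either strand, to the octamer ATTTGCAT, the CCAAT box CCAAT, the TATA box TATAAA and GGTCCG, which is part of the element of H4 promoters that the factor HINFP binds in human cells. The 3 sequences read 5′ to 3′ towards the start of the named gene. The H2bc8 stretch is the 179 bases between the starts of H2ac8 and H2bc8 (chr13:23571221-23571399, plus strand), the H2bc13 stretch the 228 bases between H2ac13 and H2bc13 (chr13:21716184-21716411, minus strand), and the H4c11 stretch the 250 bases before the start of H4c11 (chr13:21734784-21735033, plus strand).
H2bc8: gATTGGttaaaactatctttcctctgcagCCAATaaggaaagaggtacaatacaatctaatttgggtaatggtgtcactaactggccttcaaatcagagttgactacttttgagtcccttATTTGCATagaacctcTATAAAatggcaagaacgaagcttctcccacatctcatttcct
H2bc13: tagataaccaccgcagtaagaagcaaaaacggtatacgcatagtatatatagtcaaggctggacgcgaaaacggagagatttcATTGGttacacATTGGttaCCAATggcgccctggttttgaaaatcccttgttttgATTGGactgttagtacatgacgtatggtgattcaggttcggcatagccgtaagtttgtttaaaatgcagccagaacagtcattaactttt
H4c11: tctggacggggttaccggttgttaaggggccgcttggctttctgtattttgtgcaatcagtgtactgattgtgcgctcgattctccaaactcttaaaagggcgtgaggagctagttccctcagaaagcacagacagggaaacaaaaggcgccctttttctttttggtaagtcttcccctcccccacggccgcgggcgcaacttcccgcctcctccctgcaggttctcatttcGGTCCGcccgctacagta

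The H2bc8 stretch held 1 octamer, 2 CCAAT boxes and 1 TATA box, and the H2bc13 stretch held 4 CCAAT boxes and none of the other letters searched. Over 250 bases before the start, the CCAAT box was present in 12 of 12 H2A and 14 of 14 H2B windows, in 8 of 10 H3, 7 of 9 H1 and 3 of 10 H4 windows, against 33.8% of all 32851 promoter windows. The octamer occurred in 6 of 12 H2A and 7 of 14 H2B windows and in 0 of the H1, H3 and H4 windows, against 1.6% of all windows. GGTCCG occurred in 7 of 10 H4 windows and in 6.72% of all windows, and TATAAA in 4 of 9 H1, 6 of 12 H2A, 7 of 14 H2B, 4 of 10 H3 and 5 of 10 H4 windows, against 12.4%. Matches of different motifs shared bases in 1 of the 55 windows. The H2A and H2B windows of genes that start back to back overlap, so a match between such genes can be counted in both classes. Where their starts are less than 250 bases apart, a window also runs past the start of the partner gene. These are matches of letters and were not tested as binding sites.

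Signals are given as log2 of the quantile-normalized probe signal, and a probe was taken as above background in a pool where its deposited detection p was under 0.01. Between 8687 and 10221 probes were above background in a pool, of which 36 to 39 were histone probes. Of the 61 histone probes, 36 (35 genes) were above background in all 11 pools, 22 in none and 3 in some, namely H2bc8 and H4c4 in 4 pools each and H3c11 in 10. The copies are nearly identical and the probe sequences were not used here, so a probe may also bind the transcripts of other members of its class. Of the defining markers of CP epithelium, 8 of 8 measured were above background in all pools. Markers of brain tissue were measured as well, and 2 of 4 of astrocytes (Aqp4 and Aldh1l1), 1 of 4 of oligodendrocytes (Mbp) and 1 of 6 of neurons (Tubb3) were above background in all 11 pools.

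The pools labelled onset 3 and remission 3 stood apart by how close they were to each other. Their log2 signals were within 1 of each other for all 10012 probes that both detected above background, whereas 7 to 266 probes exceeded this in each of the 54 other pairs of pools. Over the 36 histone probes above background in all pools, their median absolute difference was 0.047. Control 1 with control 3 had 0.059 and control 3 with relapse 1 had 0.065, so that on these probes other pairs came near. Remission 3 lay apart from the other remission pools in many of the genes described here. The onset comparison, and those of remission with control and with onset, are therefore also given without both pools.

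At onset, 14 of the 61 histone probes were called lower than control and 0 higher (limma over all 23978 probes, Benjamini-Hochberg adjusted p under 0.05). The 14 comprised 6 H4 genes (H4c1, H4c8, H4c9, H4c11, H4c12 and H4c18), 5 H2B genes (H2bc6, H2bc7, H2bc8, H2bc9 and H2bc13), 2 H3 genes (H3c2 and H3c6) and H2ac8. Over the whole array 0.154% of probes were called lower and 1.06% higher in this comparison, which is the one that led to the choice of these genes. The differences ranged from -0.71 for H4c8, a signal 39.0% below control, to -0.43 for H4c12, 25.9% below, over the 13 of these probes that were above background in all pools. All 14 lie on chromosome 13, as do 46 of the 58 member genes.

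**Figure D1:**
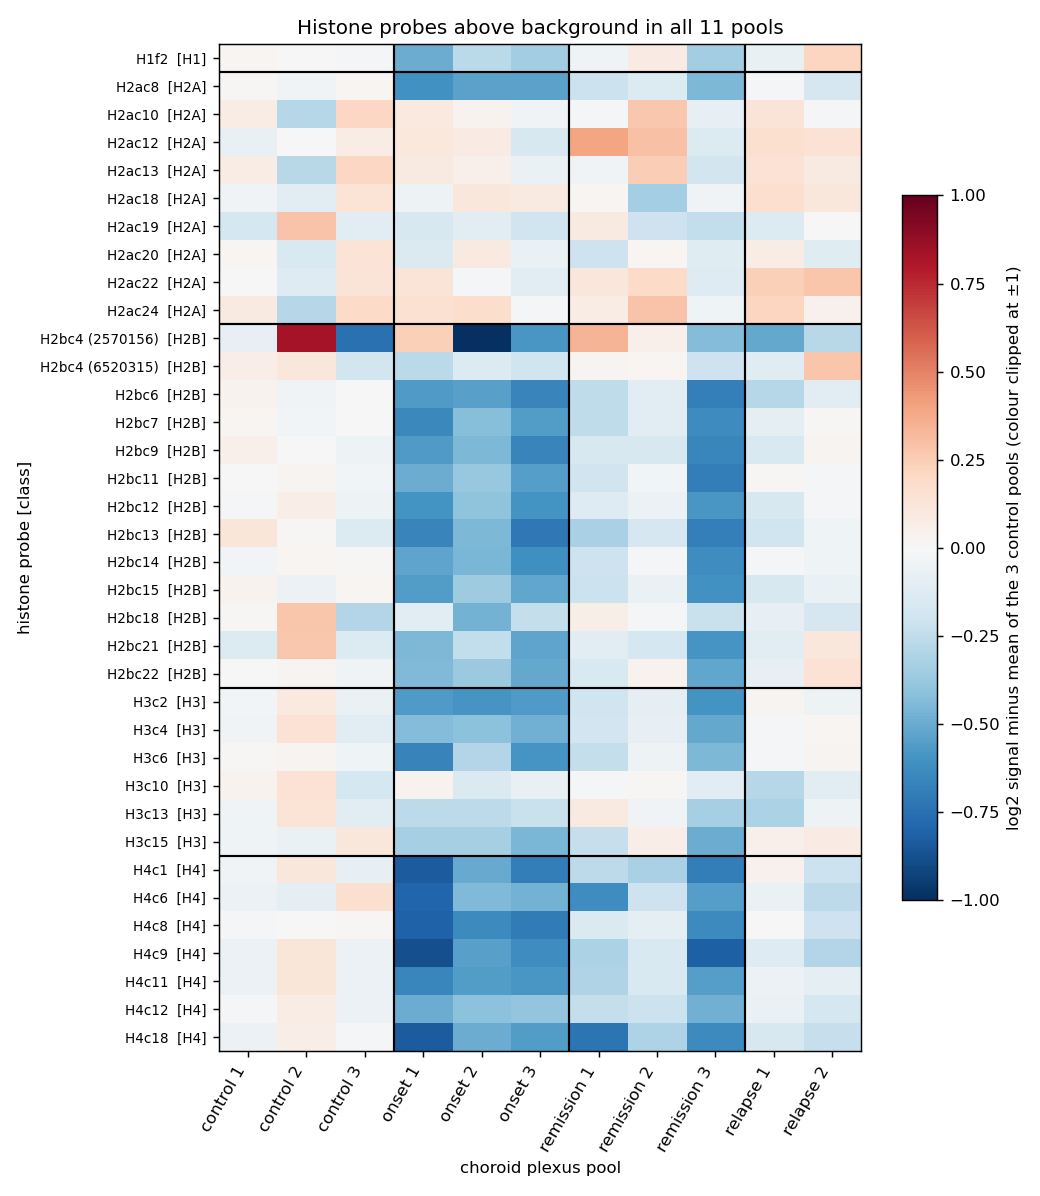
Each row is 1 of the 36 histone probes above background in all 11 pools, with its class in brackets (and the probe number for the gene with 2 probes), and each column is a pool of 3 mice. Colour is the log2 signal minus the mean of the 3 control pools, clipped at 1 in either direction. H4, most H2B and several H3 rows are blue in the 3 onset pools and in remission 3, while most H2A rows are not.

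H4 gave the largest negative differences. H4 pairs with H3 at the center of the nucleosome. H4c8 measured 10.47, 10.49 and 10.50 in the control pools, 9.68, 9.85 and 9.79 at onset, 10.34, 10.40 and 9.85 in remission and 10.48 and 10.28 at relapse. H4c11 measured 11.05, 11.23 and 11.05 in control, 10.46, 10.55 and 10.53 at onset, 10.81, 10.96 and 10.56 in remission and 11.05 and 11.02 at relapse. In both genes the onset pools lay below all control and relapse pools and below remission 1 and 2, while remission 3 was at the upper end of the onset range. The differences at onset were -0.71 ± 0.12 (SE) for H4c8 and -0.60 ± 0.10 for H4c11.

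The other called H4 genes showed a similar order of pools. H4c1 measured 11.63, 11.78 and 11.58 in control, 10.83, 11.16 and 10.97 at onset, 11.40, 11.34 and 10.97 in remission and 11.71 and 11.45 at relapse. H4c9 measured 10.77, 10.95 and 10.77 in control, 9.95, 10.29 and 10.21 at onset, 10.51, 10.68 and 10.01 in remission and 10.70 and 10.54 at relapse. H4c12 stayed between 9.41 and 9.54 in control and between 8.97 and 9.07 at onset, with 9.23, 9.25 and 8.99 in remission and 9.40 and 9.29 at relapse. For all 3 of these genes remission 3 was the lowest remission pool. H4c18 differed in that 2 remission pools were low, with 9.91, 10.04 and 9.96 in control, 9.14, 9.47 and 9.41 at onset, 9.24, 9.66 and 9.33 in remission and 9.81 and 9.74 at relapse. The onset differences were -0.67 for H4c1, -0.68 for H4c9, -0.43 for H4c12 and -0.63 for H4c18. H4c6, which was not called, lay at -0.57, with pools of 10.49, 10.45 and 10.71 in control and 9.76, 10.11 and 10.08 at onset. H4c2, H4c3 and H4c14 were above background in no pool.

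H2B followed H4, with 5 genes called. H2B pairs with H2A on the outer faces of the nucleosome. H2bc13 measured 13.14, 13.03 and 12.88 in control, 12.36, 12.57 and 12.30 at onset, 12.69, 12.85 and 12.33 in remission and 12.82 and 12.97 at relapse. H2bc6 measured 12.25, 12.18 and 12.22 in control, 11.65, 11.67 and 11.56 at onset, 11.96, 12.11 and 11.53 in remission and 11.93 and 12.11 at relapse. Neither gene had an onset pool within the range of control, and both had remission 3 inside or just below the onset range. H2bc7 measured 13.60, 13.55 and 13.58 in control, 12.93, 13.15 and 13.02 at onset, 13.32, 13.46 and 12.95 in remission and 13.48 and 13.59 at relapse. H2bc9 measured 13.17, 13.12 and 13.07 in control, 12.55, 12.67 and 12.46 at onset, 12.96, 12.96 and 12.47 in remission and 12.97 and 13.15 at relapse. The onset differences of these 4 genes were -0.61 for H2bc13, -0.59 for H2bc6, -0.55 for H2bc7 and -0.56 for H2bc9.

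The fifth called H2B gene, H2bc8, was dim. Its probe measured 9.06, 9.02 and 8.96 in control, 8.48, 8.80 and 8.56 at onset, 8.94, 8.89 and 8.84 in remission and 9.06 and 9.0 at relapse. Its signal passed the detection threshold in 1 control pool and 0 onset pools. Only a bound can therefore be given, by which control was at least 1.13-fold higher than onset. This bound is uncertain, since the other control pools were not above background either. Further H2B genes had similar negative values without being called, among them H2bc12 and H2bc14 (-0.53 each), which lay just outside the threshold together with H4c6, while H4c9, H3c6 and H2bc8 lay just inside it. H2bc15 (-0.48), H2bc11 (-0.47) and H2bc22 (-0.44) were also not called. The H2B genes on chromosome 3 had values of -0.41 (H2bc21) and -0.27 (H2bc18), and H2bc1 and H2bc3 were above background in no pool. H2bc4 was read by 2 probes that did not match, with differences of -0.51 and -0.21 at onset, and the first of them varied among the control pools from 9.83 to 11.41.

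H3 was divided. H3 carries many of the modified sites in the histone tails. H3c2 measured 10.20, 10.33 and 10.16 in control, 9.66, 9.64 and 9.66 at onset, 10.03, 10.13 and 9.63 in remission and 10.26 and 10.18 at relapse. H3c6 measured 11.14, 11.16 and 11.09 in control, 10.46, 10.84 and 10.54 at onset, 10.89, 11.08 and 10.68 in remission and 11.11 and 11.16 at relapse. The 3 onset pools of H3c2 lay closely together, whereas onset 2 of H3c6 stood above the other onset pools. The differences were -0.57 for H3c2 and -0.52 for H3c6. Of the H3 genes that were not called, H3c4 (-0.45), H3c11 (-0.43), H3c15 (-0.38) and H3c13 (-0.25) had values below control and H3c10 (-0.06) was near it. H3c3, H3c8, H3c14 and the 3 probes of H3c7 were above background in no pool.

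**Figure D2:**
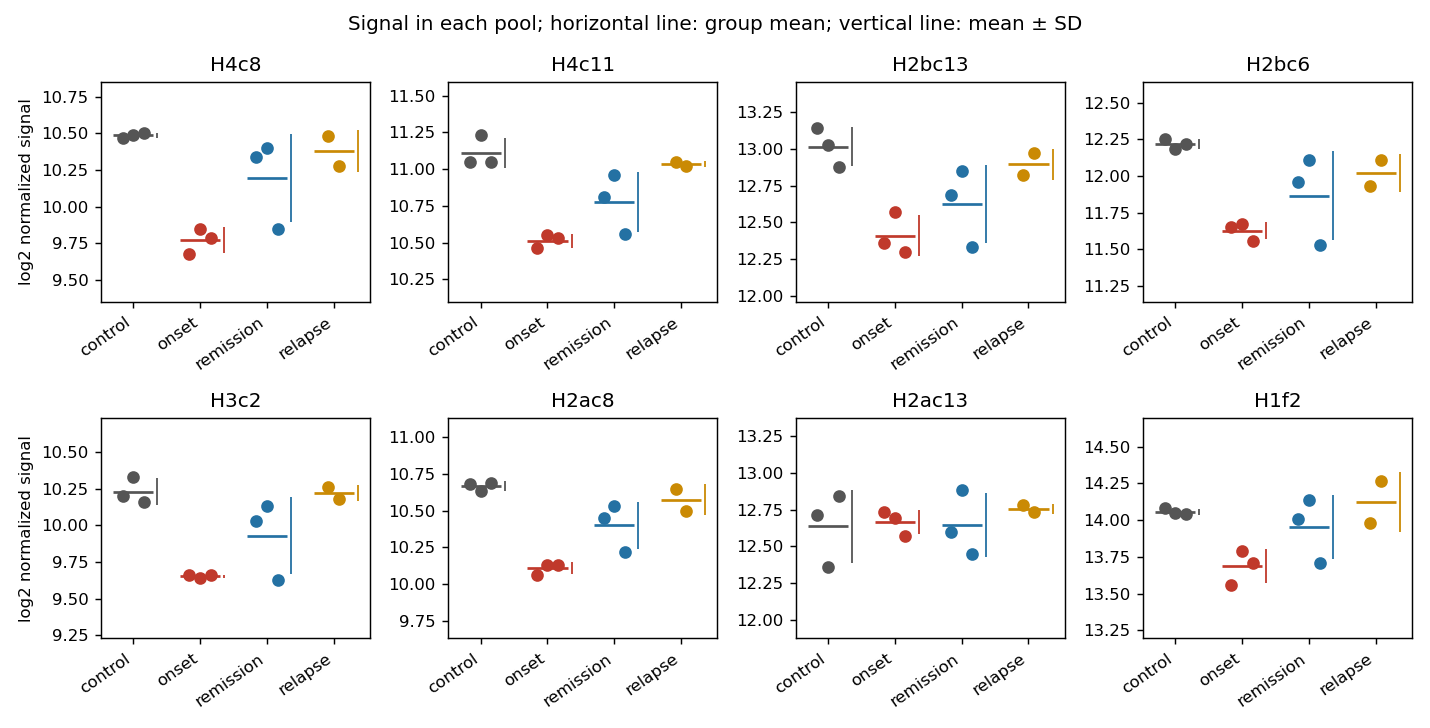
Log2 normalized signal of 8 histone genes in each pool, with groups on the horizontal axis, a horizontal line at each group mean and a vertical line for the mean ± SD (n = 3 pools, 2 at relapse). In H4c8, H4c11, H2bc13, H2bc6, H3c2 and H2ac8 the 3 onset pools lie below the control pools and remission 3 is the lowest remission pool, while the groups of H2ac13 overlap. Each panel has its own range on the vertical axis, which does not start at 0.

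H2A was the exception among the core histones. H2ac8 measured 10.68, 10.63 and 10.69 in control, 10.06, 10.13 and 10.13 at onset, 10.45, 10.53 and 10.22 in remission and 10.65 and 10.50 at relapse, a difference of -0.56 ± 0.09 at onset. It was the only H2A probe of the 9 above background in all pools that lay wholly below control at onset. H2ac13 measured 12.71, 12.36 and 12.84 in control, 12.73, 12.69 and 12.57 at onset, 12.60, 12.88 and 12.45 in remission and 12.78 and 12.73 at relapse. Its onset pools all lay inside the control range. The other H2A genes differed at onset by -0.16 (H2ac19), -0.04 (H2ac20), 0.00 (H2ac22), 0.01 (H2ac12), 0.03 (H2ac10), 0.05 (H2ac18) and 0.10 (H2ac24). Control 2 was the lowest control pool for H2ac10, H2ac13 and H2ac24 and the highest for H2ac19. H2ac1, H2ac4 and H2ac6 were above background in no pool.

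The linker histone H1 was represented above background by a single gene. H1f2 measured 14.08, 14.05 and 14.04 in control, 13.56, 13.79 and 13.71 at onset, 14.01, 14.14 and 13.71 in remission and 13.98 and 14.27 at relapse. Its onset pools lay below all control pools, with a difference of -0.37 ± 0.11 that was not called. H1f1, H1f3, H1f4, H1f5, the germ-cell genes H1f6, H1f7 and H1f8, and H1f10 were above background in no pool.

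Set side by side, the classes differed in their medians over the probes above background in all pools. At onset the median difference was -0.63 for H4 (7 probes, -0.71 to -0.43), -0.51 for H2B (13 probes, -0.61 to -0.21), -0.41 for H3 (6 probes, -0.57 to -0.06) and 0.01 for H2A (9 probes, -0.56 to 0.10). The median over all 61 histone probes was -0.24 and that over all probes on the array -0.02. The 22 histone probes above background in no pool had a median of -0.05 and ranged from -0.29 to 0.18. Every onset pool lay below every control pool for 32 of the 61 histone probes (52.5%), against 8.04% of all probes, and 0 histone probes lay wholly above, against 7.19% of all probes. At an unadjusted p under 0.05, 30 of the 61 were lower, against 4.4% of all probes, and 0 higher, against 5.32%. These counts come from the comparison by which the genes were chosen.

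**Figure D3:**
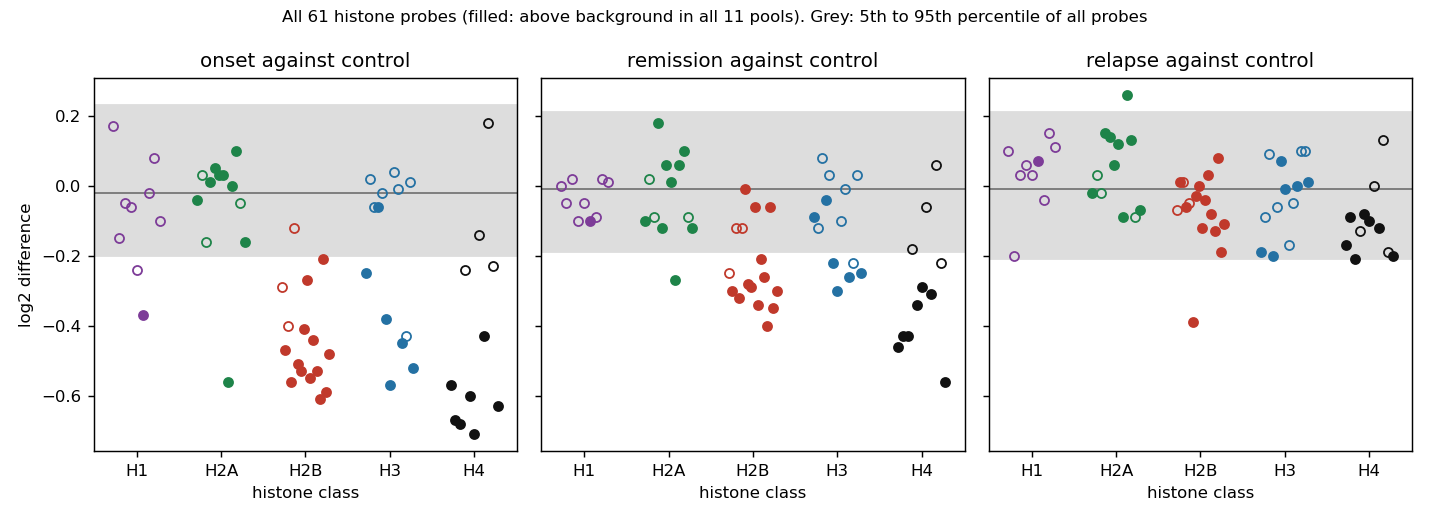
Log2 difference from control of all 61 histone probes by class, for onset, remission and relapse, with filled points for probes above background in all 11 pools and open points for the others. The grey band spans the 5th to 95th percentile of all 23978 probes and the line their median. At onset the H4 points reach -0.71 and all filled H2A points but that of H2ac8 lie within the grey band, and at relapse most points of every class lie within it.

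The onset count was sensitive to single pools and to scaling. Without control 1 or control 2, 0 probes were called, without onset 1 or onset 3 only 1, without control 3 or onset 2 8, and without relapse 1 or relapse 2, which enter through the shared spread, 7. Without remission 1, 2 or 3, which enter in the same way, 12, 14 and 20 were called. Without both onset 3 and remission 3, 12 were called lower, and the class medians were -0.67 for H4, -0.48 for H2B, -0.38 for H3 and 0.06 for H2A. The onset pools then lay below all control pools for 32 of the 61 probes, against 11.7% of all probes. Median scaling of each array instead of quantile normalization left 0 calls among the histone probes (and 4 lower calls over the whole array), neqc background correction left 6, and array weights gave 27. The 14 probes had a negative difference under all 21 alternatives run, which is no sign of stability, since they were picked as lower in this same comparison. Over the 13 of them above background in all pools the values lay between -0.92 and -0.34.

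**Figure D4:**
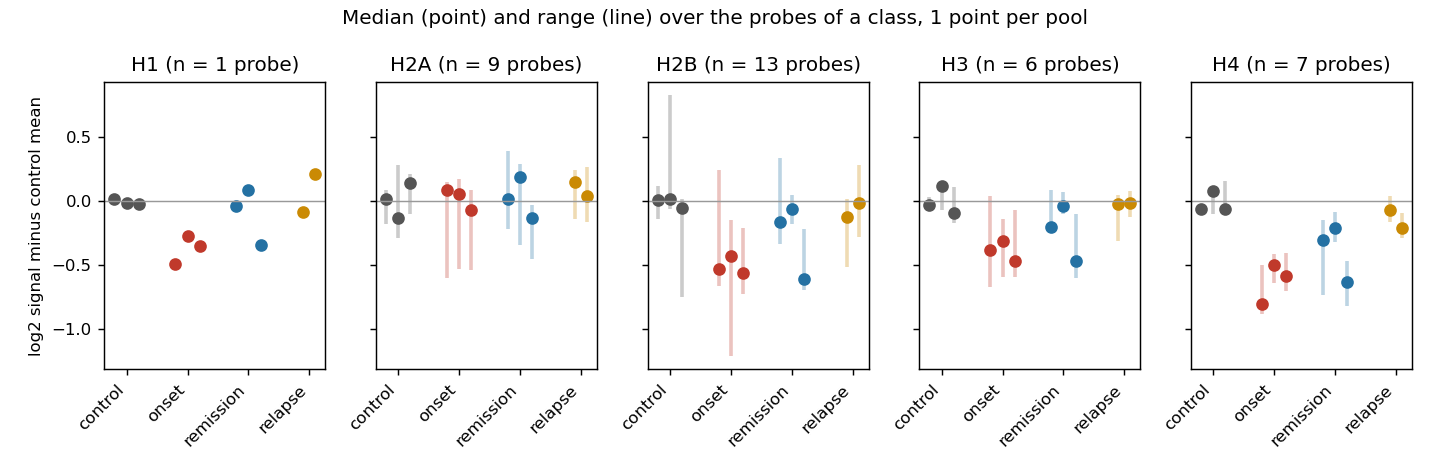
Deviation of each pool from the control mean on the log2 scale, by histone class. Points are the median over the probes of the class that were above background in all 11 pools, 1 point per pool, and lines are the range over those probes. For H4, H2B and H3 the onset pools and remission 3 lie lowest, for H2A the groups overlap, and the only H1 probe is H1f2.

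Pool by pool, the H4 median deviated from control by -0.80, -0.50 and -0.58 in the onset pools, by -0.30, -0.21 and -0.63 in the remission pools and by -0.07 and -0.21 at relapse. The H2B median deviated by -0.53, -0.43 and -0.56 at onset, by -0.16, -0.06 and -0.61 in remission and by -0.12 and -0.01 at relapse. For H2A the onset medians were 0.09, 0.06 and -0.07 and the remission medians 0.02, 0.19 and -0.13, all within the 3 control pools, which spanned -0.13 to 0.14, apart from remission 2. Remission was uneven, with remission 3 at the level of onset and the other pools nearer to control. Among the 14 probes called at onset, remission 3 was the lowest remission pool for 13 and within or below the onset range for 10, against 1 for remission 1 and 0 for remission 2. The SD between pools for these 14 probes had a median of 0.06 in control, 0.11 at onset, 0.25 in remission and 0.09 at relapse.

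In remission, 0 of the 61 histone probes were called against control in either direction, in a comparison that called 0% of all probes lower and 0.204% higher and that shares its control pools with the onset comparison. The median difference was -0.43 for H4, -0.29 for H2B, -0.23 for H3 and 0.01 for H2A. H4c18 came nearest to the threshold with -0.56 ± 0.11 (adjusted p = 0.0836, limma), followed by H4c6 with -0.46 ± 0.13 (adjusted p = 0.262) and H4c12 with -0.31 ± 0.09 (adjusted p = 0.287). At an unadjusted p under 0.05, 20 histone probes were lower, against 3.12% of all probes, and 0 were higher, against 3.95%. For 20 probes (32.8%, against 6.33% of all probes) every remission pool lay below every control pool, and this held for all 14 of the probes called at onset. The genes were chosen by values below these same control pools at onset, which makes a value below them in remission more likely. The remission counts and p-values are therefore a description and no support for a difference. Above every control pool lay 0 histone probes, against 5.67% of all probes. H4c18 was called with array weights (adjusted p = 0.0353) and without onset 1 (adjusted p = 0.0406), and over the other alternatives its adjusted p ran up to 0.437.

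Remission 3 carried much of this. Without it the median remission difference was -0.24 for H4, -0.12 for H2B, -0.11 for H3 and 0.11 for H2A, again with 0 calls. The 7 H4 probes above background in all pools then all still lay below 0, as did 10 of the 13 H2B probes. Without both onset 3 and remission 3, 0 histone probes were called in remission against control. At an unadjusted p under 0.05, 6 were then lower (9.84%, against 1.78% of all probes) and 1 higher (1.64%, against 3.08%). Both remaining remission pools lay below all control pools for 20 histone probes (32.8%, against 10.8%) and above them for 1 (1.64%, against 9.13%).

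At relapse, the histone probes were close to control, and 0 of 61 were called in either direction (0% of all probes were called lower and 0.0125% higher). The medians were -0.12 for H4, -0.06 for H2B, 0.00 for H3 and 0.12 for H2A. H4c8 differed from control by -0.10 (95% confidence interval -0.40 to 0.20), H2bc13 by -0.13 (-0.43 to 0.18) and H3c2 by -0.01 (-0.28 to 0.27). The smallest adjusted p belonged to H4c3 (-0.19, adjusted p = 0.870), whose probe was above background in no pool, and H2ac22 had the largest positive difference (0.26 ± 0.11, adjusted p = 0.872). Both relapse pools lay below all control pools for 10 of the 61 probes, or 16.4%, against 9.57% of all probes, and above them for 4, against 10.7%. The 10 included 6 of the 11 H4 probes. At an unadjusted p under 0.05, 1 histone probe was lower (2.15% of all probes) and 1 higher (3.53% of all probes).

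The phases were also compared directly. Comparisons with onset use the same onset pools as the one that led to the choice of the genes. Choosing genes by low onset values makes a difference from onset more likely. The p-values and calls against onset are therefore a description and no support for a difference. Against onset, 0 histone probes were called higher at relapse, where 0.0959% of all probes were. The largest differences were 0.61 ± 0.14 for H4c8 (adjusted p = 0.101), 0.59 ± 0.14 for H4c1 (adjusted p = 0.110) and 0.57 ± 0.13 for H3c2 (adjusted p = 0.0893), and the smallest adjusted p was that of H2ac8 (0.47 ± 0.10, adjusted p = 0.0784). At an unadjusted p under 0.05, 28 of 61 were higher (45.9%, against 5.03% of all probes) and 0 lower (against 4.21%). Both relapse pools lay above all 3 onset pools for 35 of the 61 probes (57.4%, against 14.6% of all probes), all 14 of the probes called at onset among them, and below them for 1 probe (against 11.8%). The share of all probes called lower was 0.196%, with 0 histone probes.

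The relapse comparison changed when remission 3 was left out of the fit, where it contributes only to the shared spread. Then 13 histone probes were called higher at relapse than at onset, among them H4c8 (adjusted p = 0.00778), H3c2 (adjusted p = 0.00824), H4c11 (adjusted p = 0.0197) and H2ac8 (adjusted p = 0.0204). These calls, too, only describe genes that were chosen by their low onset values. A fit of only these 2 groups called 4 probes, array weights 12, and leaving out both onset 3 and remission 3 gave 2.

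Between onset and remission 0 histone probes were called (0% of all probes were called in either direction), with every adjusted p at 1, and at an unadjusted p under 0.05 9 were higher, against 1.81% of all probes, and 0 lower, against 2.29%. Every remission pool lay above every onset pool for 6 histone probes (4.52% of all probes) and below for 3 (4.35%). H4c8 had 0.42 ± 0.12 in remission over onset, and without remission 3 it was the 1 histone probe called higher, at 0.60 (adjusted p = 0.0179). Without both onset 3 and remission 3, 0 histone probes were called, 23 were higher at an unadjusted p under 0.05, against 2.41% of all probes, and for 33 both remaining remission pools lay above both onset pools, against 16.1%. These counts and the call of H4c8, too, only describe genes that were chosen by their low onset values. Between remission and relapse 0 were called as well (0% higher and 0.0292% lower over all probes), with 8 higher at relapse at an unadjusted p under 0.05, against 2.86% of all probes, and 0 lower, against 2.65%. The relapse pools lay above all remission pools for 16 histone probes (12.2% of all probes) and below for 2 (11.4%). H4c18 had the smallest adjusted p there (0.37 ± 0.13, adjusted p = 0.780).

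The pairs that start back to back were read side by side, since both genes of a pair flank the same promoter stretch. There were 5 such pairs among the members, and in 3 of them both genes were above background in all pools, with 177 to 239 bases between their starts. In all 3 the H2B value was lower than the H2A value at onset, with 0.01 for H2ac12 and -0.53 for H2bc12, 0.03 for H2ac13 and -0.61 for H2bc13, and 0.00 for H2ac22 and -0.44 for H2bc22. The fourth pair, H2ac8 and H2bc8, was called lower on both sides, with -0.56 for H2ac8 and the uncertain bound given above for H2bc8, and the fifth, the testis pair H2ac1 and H2bc1, was above background in no pool. In remission the same 3 pairs had values of 0.18 and -0.26, 0.01 and -0.40, and 0.06 and -0.21, and at relapse the H2B sides were at -0.08, -0.13 and 0.03. The difference within a pair was not tested, since it sets one probe against another and belongs to the comparison that chose the genes. A probe may also bind transcripts of other members of its class, so a value may not be that of the named gene alone. The 3 pairs may therefore not be separate readings of 3 promoters.

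**Figure D5:**
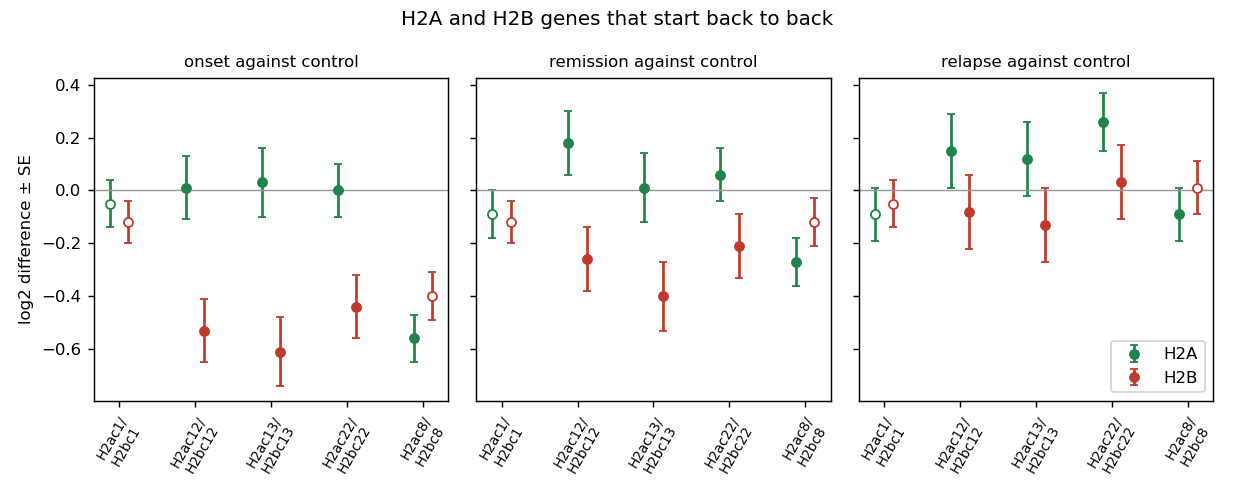
Log2 difference from control ± SE for the H2A and H2B genes of 5 pairs that start back to back, at onset, in remission and at relapse, with open points where a probe was not above background in all 11 pools. At onset H2bc12, H2bc13 and H2bc22 lie between -0.61 and -0.44 while their H2A partners lie between 0.00 and 0.03.

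Histone genes outside the symbol rule were read for comparison. These include replacement variants, many of which, though not all, are made throughout the cell cycle from ordinary polyadenylated mRNAs. At onset H3f3a and H3f3b, which encode the replacement H3.3, had differences of 0.14 and 0.10, H2az1, which encodes H2A.Z, -0.02, H2ax, the variant phosphorylated at DNA breaks, -0.07, and H2aj -0.09. None of the 12 other histone family probes was called in any phase against control. The list of replacement variants (9 measured, 6 above background in all pools) had a median of -0.02 at onset, 0.02 in remission and -0.03 at relapse, with 0 called. Its highest value was that of Cenpa, the centromeric H3 (0.45 at onset, adjusted p = 0.142).

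Genes of the S phase and of histone mRNA metabolism did not pass the test in any phase. Of the cell cycle and DNA replication list, 38 genes were measured and 14 were above background in all pools, and 0 were called, with medians of 0.07, 0.05 and -0.04 at onset, in remission and at relapse. Mki67 and Top2a, markers of dividing cells, were above background in no pool (0.05 and 0.07 at onset). E2f1, a transcription factor of the G1 to S transition, had -0.37 at onset (adjusted p = 0.379). Of the genes for histone transcription and for 3′ end processing, 28 were measured and 0 called, with medians of -0.03, -0.02 and 0.00. Npat, the coactivator of histone gene transcription, differed by 0.09 at onset (adjusted p = 0.935), Hinfp, the factor of H4 promoters, by 0.36 (adjusted p = 0.246), and Slbp, which binds the stem-loop, by -0.09 (adjusted p = 0.888), the last 2 above background in no pool. Of the histone chaperones, 22 were measured and 0 called, with medians of 0.01, -0.02 and -0.01, and Chaf1a, a subunit of the chromatin assembly factor, had the highest value at onset (0.29, adjusted p = 0.247).

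Markers of other cell types moved across the same pools. The pools are bulk tissue, in which fewer cells of a type and less RNA per cell cannot be told apart. Of the endothelial markers 3 of 8 were called higher at onset and 3 in remission, and 7 of 8 were above background in at least 1 pool, all but Kdr. Their summed linear signal was 11677 to 14283 in control, 19240 to 23744 at onset, 19203 to 24834 in remission, with the highest value in remission 3, and 11770 to 12704 at relapse. Of the neutrophil markers 6 of 9 were called higher at onset and 0 later, all but Mmp8 being above background in at least 1 pool, and the summed signal was 3869 to 7529 in control, 16250 to 30476 at onset, 8136 to 16878 in remission, again highest in remission 3, and 4294 to 4649 at relapse. The stromal sum was 28433 to 33667 in control, 43230 to 49641 at onset, 39652 to 44238 in remission and 36387 to 39488 at relapse (1 of 7 called higher at onset), and the macrophage sum 5813 to 9059, 10706 to 14068, 10497 to 13171 and 10083 to 10550 (1 of 7 called higher at onset and 1 in remission). Dcn and Pdgfra gave most of the stromal sum. The stromal list had a median difference of only 0.10 at onset, from -0.39 for Lum to 1 for Pdgfra. Of the lymphocyte markers 4 of 8 were called higher at onset and 2 in remission, and 0 at relapse, where the sum stayed at 3610 to 3878 against 2108 to 2601 in control. The 8 include Ms4a2, a mast cell gene that entered through a shared synonym in place of Ms4a1 and was not called. Only 4 of the 8 were above background in at least 1 pool and 0 in all 11, so background is part of the lymphocyte sum. Of the epithelial markers 0 of 8 were called in any phase and the sum was 426701 to 447846 over all pools, to which bright probes such as Ttr, Kl, Clic6, Folr1 and Aqp1 gave most of the signal. At onset the epithelial list had a median difference of -0.04, from 0.09 for Ttr down to -0.16 for Calml4 and, apart from the others, -0.68 for Kcne2. Kcne2, a potassium channel subunit, measured 12.57, 12.80 and 12.34 in control, 11.92, 11.69 and 12.05 at onset, 12.52, 12.33 and 11.92 in remission and 12.41 and 12.53 at relapse. Its onset pools lay below all control pools, as did remission 3, with -0.68 ± 0.15 at onset (adjusted p = 0.0539), -0.32 in remission (adjusted p = 0.732) and -0.10 at relapse (adjusted p = 0.979). Of the oligodendrocyte markers 0 of 4 were called in any phase, and the sum was 2990 to 8344 in control, 4467 to 10251 at onset, 5370 to 10305 in remission, highest in remission 3, and 10026 to 11615 at relapse. Mbp gave most of the oligodendrocyte sum. The astrocyte sum was 4363 to 5743, 5014 to 5702, 4080 to 4834 and 6190 to 6636 in the same order, and the neuron sum 2273 to 2553, 2151 to 2701, 2452 to 2762 and 2573 to 2971, with 0 called. The part of these cell types in the histone values was not tested.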

How the data were processed

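CP gene expression was measured on Illumina MouseRef-8 arrays. The sources name different amplification kits, and the chip of each array is not given in the sources used here. The authors read the arrays in BeadStudio and deposited each probe's signal intensity without normalization and its detection p-value against the array's background. They also deposited log2 values after quantile normalization, which differ from those computed here by at most 0.0888. Of 23983 rows, 5 repeated another row and were left out.

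Signals were quantile-normalized without background correction or filter and log2-transformed in R 4.3.3. In limma 3.58.1 a linear model with 1 mean per group (4 groups) was fitted over all 23978 probes, with 7 residual and 5.53 prior degrees of freedom, and 6 contrasts were tested two-sided with Benjamini-Hochberg adjustment at 5% within each. The procedure was checked on simulated data. Array number and signal over background, not counts, limit the precision. Any histone member could be named. Those called in any contrast are given in every pool, the others above background by their differences, and from each other list up to 4 genes were eligible, chosen by p, besides genes named for their role or absence with their values seen. Members and lists were chosen with earlier results of these data known. The alternatives were neqc (offset 16), the authors' normalized values, median scaling, only probes above background in at least 2 pools, fits of the compared groups alone, array weights, blocking on replicate number, trended robust eBayes, 1 probe per gene, and fits without each pool or without both onset 3 and remission 3. Same-numbered onset and remission pools deviated together (r = 0.26 to 0.46 over probes), while their different-numbered pairs had r = -0.37 to 0.14. Across other groups, different-numbered pools reached r = 0.65 (control 3 with onset 2), so the numbers were not shown to pair the pools. The main fit used no pairing, and blocking on replicate number was only an alternative. A bound on a fold was taken against the detection limit.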

Additional observations from a re-analysis of the deposited data

How the results depend on the processing

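The 14 histone probes called lower at onset became 6 with neqc, 0 with median scaling and 27 with array weights, and ran from 0 to 20 when 1 pool was left out. Array weights also called 1 histone probe higher at onset and 1 lower in remission, where leaving out 1 pool gave 0 to 1. For remission over onset the count of 0 became 1 at most on leaving out a pool (range 0 to 1). For relapse over onset the count of 0 became 4 in the fit of only these groups, 12 with array weights and 2 without both onset 3 and remission 3, and ran from 0 to 13 on leaving out a pool.

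The median over all histone probes at onset, -0.24, was -0.27 with neqc, -0.20 with median scaling, -0.44 with the filter on dim probes, and -0.21 with array weights and without both onset 3 and remission 3, and ran from -0.25 to -0.18 when 1 pool was left out. The remission median, -0.12, was -0.14 with median scaling, -0.25 with the filter and -0.08 without both pools (-0.17 to -0.08 on leaving out 1 pool). The relapse median, -0.03, was -0.07 with median scaling and with the replicate block (-0.06 to -0.01). The filter drops the probes above background in fewer than 2 pools. The cause of the other shifts was not tested.

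The labels give the groups shared replicate numbers. Of 15 same-numbered pairs 5 had correlated deviations over 0.1 (-0.59 to 0.47), among them all 3 of onset with remission. Different-numbered pools reached 0.65 (control 3 with onset 2), so the numbers were not shown to pair the pools. With the replicate block, 0 histone probes were called for remission against onset, and 17 lower at onset against control. Over the 14 probes and 21 alternatives, 118 of 294 onset values no longer passed the test and 0 changed sign. That their sign held was fixed by their choice. For the 22 probes above background in no pool no fold can be read.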
